A study of Mus musculus with 4 samples.

Results

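The neuregulins and the ErbB receptors were followed as 7 genes, the neuregulins Nrg1, Nrg2 and Nrg3 and the receptors Egfr, Erbb2, Erbb3 and Erbb4, among the 32285 genes of the deposited matrices, in single nuclei from the paraventricular region of the hypothalamus (PVN) of C57Bl6 mice. The family was selected on measured values: Erbb4 was picked for the difference between times of its UMI counts in neurons of these same libraries. For that reason the ZT20 against ZT8 difference in neurons is described here without a test. Erbb4 was not picked on levels across cell classes or on changes in glia. The members and the pathway list were still chosen with earlier results of these data known. The tissue was taken from male mice, aged 10 weeks in the sample labels, at 8 or 20 hours of zeitgeber time (ZT8 or ZT20, counted from lights on). Each of the 4 libraries, 2 per time, pooled the micropunched PVN of 5 animals, and nuclei, not whole cells, were loaded into a droplet assay that reads the 3' ends of transcripts with unique molecular identifiers (UMIs). No genotype or drug separates the groups. The sources used here do not give the day or litter of each library, so the spread between them may be partly technical.

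Neuregulins are growth factors with an EGF-like domain, mostly made as membrane-bound precursors and released by proteases. NRG1 and NRG2 bind ErbB3 and ErbB4, NRG3 binds ErbB4, and EGFR binds EGF and related ligands. ErbB2 binds no known ligand and serves as a dimer partner, ErbB3 has little kinase activity of its own, and ErbB4 both binds ligand and signals. In the brain ErbB4 is best known from inhibitory interneurons, ErbB3 from the oligodendrocyte lineage and Schwann cells, and EGFR from astrocytes and progenitors.

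The libraries held 57970649 to 69223344 UMIs, and 28980 nuclei were kept, between 6053 and 8667 per library, with median depths from 2063 to 5148 UMIs. The ZT20 libraries were shallower per nucleus, and any pair of libraries shared only 10 to 25 barcodes. Clusters were formed without the 7 genes. Named from markers were neurons (10592 nuclei), oligodendrocytes (2912), astrocytes (1640), oligodendrocyte precursors (OPCs, 553), microglia (492) and endothelial cells (282), each written with the ending "-like". Another 12183 nuclei stayed unnamed, mostly for few UMIs, and made up 32.6 and 34.1% of the ZT8 libraries and 44.4 and 52.5% of the ZT20 libraries. Few neurons carried the markers of the labelled tissue: Sim1 PVN-like neurons, led by Oxt, Sim1 and Avp, were 0.795 and 0.979% of neuron-like nuclei at ZT8 and 6.89 and 6.13% at ZT20. Thalamic-like neurons, named from markers such as Tcf7l2, Prkch and Lef1, made up 42.8 and 43.7% at ZT8 and 23.7 and 21.4% at ZT20, and GABAergic-like neurons made up 20.7 and 19.7% at ZT8 and 25.8 and 26.3% at ZT20. Whether these shares follow the time of day or the punches cannot be told apart.

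All 7 genes matched the GENCODE M21 annotation of the mouse genome build GRCm38 (mm10) by identifier. Among them 3 are very long: Erbb4 (ENSMUSG00000062209) lies on chromosome 1 from 68032186 to 69108059, Nrg3 (ENSMUSG00000041014) on chromosome 14 from 38368952 to 39473088 and Nrg1 (ENSMUSG00000062991) on chromosome 8 from 31814551 to 32884029. The others are shorter, with Egfr (ENSMUSG00000020122) on chromosome 11 from 16752203 to 16918158, Nrg2 (ENSMUSG00000060275) on chromosome 18 from 36017652 to 36197380, Erbb2 (ENSMUSG00000062312) on chromosome 11 from 98412470 to 98437716 and Erbb3 (ENSMUSG00000018166) on chromosome 10 from 128567523 to 128589652. Erbb4 spans 1076 kb and Erbb3 only 22.1 kb. How reads in introns were counted was not given in the sources used here, and if introns were counted a long gene gathers more UMIs, so levels are compared within a gene unless given per kilobase of gene. Erbb2 overlaps the protein-coding gene Mien1 on the opposite strand, and Erbb4 holds 8 shorter genes on its own strand, 1 of them in the deposited gene list.

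The ligand Nrg3 was highest in neurons, with a lower level in OPC-like nuclei. Levels are given in CPM, the UMIs of the gene per 1000000 UMIs summed over all nuclei of that class in a library. In thalamic-like neurons Nrg3 stood at 5283 ± 99.7 CPM (SD, n = 4 libraries of both times), in other neurons led by the glutamate transporter gene Slc17a6 at 4833 ± 193 CPM and in GABAergic-like neurons at 4041 ± 334 CPM, with no overlap between libraries of neighbouring types. OPC-like nuclei held 1404 to 1657 CPM, below every neuron type and above every other glial class with at least 20 nuclei per library. Endothelial-like nuclei came next at 353 to 1082 CPM, with 127 to 239.8 UMIs per 1000 UMIs of the 7 neuron markers. Astrocyte-, oligodendrocyte- and microglia-like nuclei held 155, 179 and 207 CPM on average, and their library ranges overlapped. UMIs of neuron markers were found in these classes too: the 7 neuron markers summed to 2044 and 2072 CPM at ZT8 and 1829.7 and 1723 CPM at ZT20 in oligodendrocyte-like nuclei, and none of the 7 was at 0. Set against that sum, Nrg3 had 73.3 to 104 UMIs per 1000 neuron-marker UMIs in astrocyte-like, 84.9 to 106 in oligodendrocyte-like and 75.1 to 103 in microglia-like nuclei, 219 to 247 in neuron-like nuclei and 708 to 819.6 in OPC-like nuclei. The OPC-like value is thus above that of the neurons themselves, and those of astrocyte-, oligodendrocyte- and microglia-like nuclei are below that of the neurons. Whether the Nrg3 UMIs in these 3 classes came from neurons was not tested.

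Nrg1, the ligand with the best studied roles in synapses and myelination, was also mostly neuronal but uneven among neuron types. It reached 1997 ± 249.9 CPM (SD, n = 4) in other Slc17a6-led neurons and 1898 ± 261 CPM in GABAergic-like neurons, 2 types whose libraries overlapped, and 809.8 ± 21.7 CPM in thalamic-like neurons, which lay below both. OPC-like nuclei held 212 to 313 CPM and endothelial-like nuclei, which overlapped them, 130.1 to 349 CPM, and microglia-, oligodendrocyte- and astrocyte-like nuclei held between 37.7 and 88.4 CPM. A small ependymal-like class had 11 and 14 nuclei in the ZT8 libraries and 18 and 13 in the ZT20 libraries. As a mean of the CPM of each nucleus, it read 1683 and 946 CPM at ZT8 and 364 and 206 CPM at ZT20. On that measure OPC-like nuclei read 202 to 282 CPM. Against the neuron markers, Nrg1 had 105 to 160.1 UMIs per 1000 in OPC-like nuclei, 61.6 to 71.3 in neuron-like nuclei, 36.2 to 77.4 in endothelial-like nuclei, which overlapped the neurons, and 24.6 to 28.1 in oligodendrocyte-like nuclei.

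Nrg2, a ligand close to NRG1 in sequence, differed little among neurons and was also found in OPC- and astrocyte-like nuclei. GABAergic-like, other Slc17a6-led and thalamic-like neurons held 184, 170.4 and 139 CPM on average. OPC-like nuclei, at 109 to 155 CPM, overlapped the thalamic-like neurons, and astrocyte-like nuclei held 72.2 to 103 CPM, above every oligodendrocyte-like library (12.0 to 15.6 CPM). Per kilobase of gene, Nrg3 led the ligands in neuron-like nuclei at 4.37 CPM per kb, followed by Nrg1 at 1.30 and Nrg2 at 0.885.

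**Figure D1:**
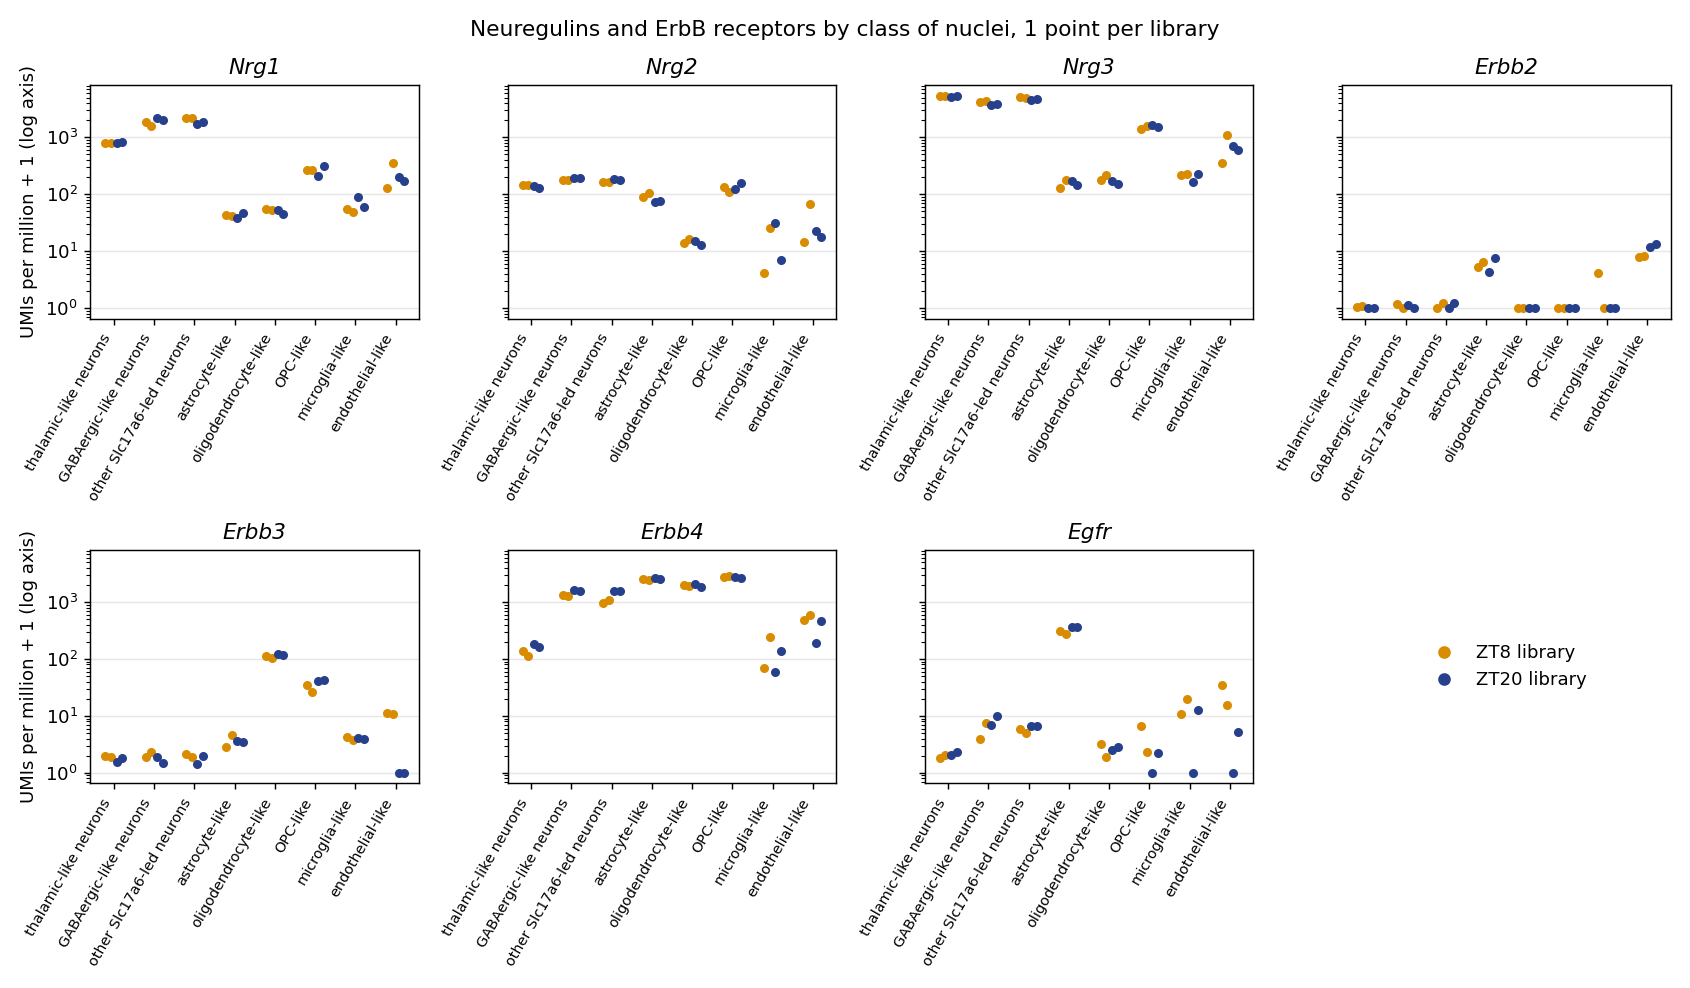
Each panel plots 1 gene; the horizontal axis gives 8 classes of nuclei and the vertical axis CPM plus 1 on a log scale, with 1 point per library (orange ZT8, blue ZT20). The ligands Nrg1 and Nrg3 are highest in neurons, Erbb3 in oligodendrocyte-like nuclei (113 CPM) and Egfr in astrocyte-like nuclei (327 CPM), while Erbb4 is high in 3 glial classes and low in thalamic-like neurons.

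Among the receptors, Erbb4, the receptor shared by all neuregulins, was higher in OPC-, astrocyte- and oligodendrocyte-like nuclei than in any of the 3 large neuron types taken whole, though neuron clusters 18 and 29 were higher in every library than these glial classes. OPC-like nuclei held 2785 and 2874 CPM in the ZT8 libraries and 2764 and 2695 CPM in the ZT20 libraries. Astrocyte-like nuclei followed at 2430.3 to 2602 CPM and oligodendrocyte-like nuclei at 1844 to 2051 CPM, and these 3 classes did not overlap. GABAergic-like neurons (1445 ± 166 CPM, SD, n = 4) and other Slc17a6-led neurons (1285 ± 304 CPM) came next and overlapped each other, and endothelial-like nuclei held 193 to 601 CPM. Thalamic-like neurons held 148 ± 30.6 CPM, which overlapped microglia-like nuclei at 125 ± 83.2 CPM; in every library GABAergic-like neurons held 8.83 to 11.2 times the level of thalamic-like neurons. Unnamed nuclei held 933 to 1151 CPM and 19.9% of all Erbb4 UMIs, against 58.6% in neuron-like nuclei. Tanycyte-like nuclei, of which 88 and 93 came from the ZT20 libraries and 1 from each ZT8 library, held 1113 and 1180.5 CPM at ZT20.

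The share of nuclei with an Erbb4 UMI gave the same order when every nucleus was thinned to 1000 UMIs. It was 90.4 to 93.7% across libraries in OPC-like, 83.2 to 89.0% in astrocyte-like and 71.0 to 76.2% in oligodendrocyte-like nuclei. GABAergic-like neurons had 42.1 to 45.9%, thalamic-like neurons 7.42 to 12.7% and microglia-like nuclei, taken as the background class, 4.84 to 9.76%. Without thinning these shares were at least 98.5% in every OPC-like library and 97.7 to 99.5%, 91.4 to 94.4%, 67.6 to 71.0%, 31.0 to 41.2% and 13.9 to 20.3% in the other classes in the same order, at median depths of 16997 to 19077 UMIs in thalamic-like neurons and 2514 to 2655 UMIs in microglia-like nuclei. Thinning left out 3 GABAergic-like, 4 OPC-like, 3 astrocyte-like and 6 oligodendrocyte-like nuclei and no thalamic- or microglia-like ones.

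Erbb3 marked the oligodendrocyte lineage. Oligodendrocyte-like nuclei held 109.8 and 104 CPM in the ZT8 libraries and 123 and 116 CPM in the ZT20 libraries, and OPC-like nuclei held 34.6 and 25.6 CPM in the ZT8 libraries and 39.7 and 42.2 CPM in the ZT20 libraries, so the mature class stood 2.75 to 4.07 times above its precursors in every library. No library of any other class in the ranking reached 25.6 CPM, the lowest OPC-like value: endothelial-like nuclei held 0 to 10.3 CPM from 7 UMIs in all, and neuron-like nuclei 0.692 to 1.04 CPM. Per kilobase of gene the order of the receptors in oligodendrocyte-like nuclei was Erbb3 at 5.12 CPM per kb and Erbb4 at 1.82, the reverse of their order in CPM. In OPC-like nuclei Erbb4 led on both scales, at 2.58 against 1.60 CPM per kb.

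Egfr, the receptor for EGF and TGF-alpha, was highest in astrocyte-like nuclei. Astrocyte-like nuclei held 310.2 and 273 CPM in the ZT8 libraries and 359 and 364 CPM in the ZT20 libraries and 58.1% of all Egfr UMIs while being 5.66% of the nuclei. The ranges of the other 7 classes overlapped with those next to them in the order, from 13.2 CPM in endothelial-like nuclei down to 1.06 CPM in thalamic-like neurons. Per kilobase, astrocyte-like nuclei held 2.37 CPM of Erbb4 and 1.97 of Egfr. A small class of 87 fibroblast-like nuclei, under 20 in 1 library, held 24.1 to 157 CPM of Egfr from 48 UMIs. Within neurons, Egfr was uneven too: neuron cluster 18 held 27.3 ± 15.4 CPM and cluster 4 held 21.2 ± 14.5 CPM (SD, n = 4), against a median of 1.76 CPM over 24 neuron clusters.

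Erbb2, the partner without a ligand, was nearly absent from the counts, with 91 UMIs in 226756145 over all libraries. Astrocyte-like nuclei held 33 of these (3.23 to 6.64 CPM per library), endothelial-like nuclei 10 (6.85 to 12.5 CPM) and tanycyte-like nuclei 15. As a mean of the CPM of each nucleus, tanycyte-like nuclei read 10.3 and 25.1 CPM in the ZT20 libraries. On that measure fibroblast-like nuclei read 0 to 14.8 CPM and endothelial-like nuclei 1.71 to 11.2 CPM across libraries. Neuron-like nuclei held 11 UMIs of 158532600. Oligodendrocyte- and OPC-like nuclei, the classes with Erbb3, held none, and with 9630259 and 3112324 UMIs a count of 0 allows a level of up to 0.312 and 0.964 CPM. These limits cover counting error only. Erbb2 passed the filter on low counts in no single class and was not tested there.

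Neuron clusters differed far more in Erbb4 than in the ligands. Over the 24 neuron clusters with at least 20 nuclei in every library, Erbb4 ranged from 27.4 to 4262 CPM, Nrg1 from 186 to 3167, Nrg3 from 3015 to 8454 and Nrg2 from 98.3 to 225. The highest of the 24 was cluster 18, an Slc17a6-led cluster with Ebf1 and Ebf3 among its leading genes, at 3883 and 4271 CPM in the ZT8 libraries and 4645 and 4247 CPM in the ZT20 libraries. It was followed without overlap by cluster 10, led by Klhl1, Nfia and Col11a1, at 2554 ± 265 CPM (SD, n = 4). The Slc17a6-led cluster 6 came next at 1986 ± 124 CPM, and it overlapped the GABAergic-like cluster 4 at 1953 ± 454 CPM, which in turn overlapped the GABAergic-like cluster 12 at 1919.7 ± 145 CPM. A GABAergic-like cluster with fewer nuclei, cluster 29, led by Meis2, Sox2ot and Pbx3, was higher still: 9230.4 and 7730.3 CPM in the ZT8 libraries and 7783 and 7707 CPM in the ZT20 libraries, from 19, 15, 42 and 28 nuclei. At the other end stood 5 thalamic-like clusters and the Slc17a6-led cluster 1, with means from 27.4 to 87.4 CPM, among them cluster 8 at 27.4 ± 19.8 CPM and cluster 5 at 34.2 ± 16.9 CPM. The other 2 of the 7 thalamic-like clusters, 3 and 13, held 215 ± 31.6 CPM and 782 ± 89.2 CPM.

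The ligands did not follow the Erbb4 order. Cluster 1, among the lowest for Erbb4, was among the highest for Nrg1 at 3062 ± 63.5 CPM (SD, n = 4), while cluster 18, with the most Erbb4 of the 24, held 719 ± 182 CPM of Nrg1. Cluster 5, a thalamic-like cluster led by Col25a1 and Lef1, had the least Nrg1 (186 ± 28.2 CPM) and the third highest Nrg3 of the 24 (6228 ± 175 CPM). Of the 24, Nrg3 was highest in cluster 23, an Ebf2-led cluster, at 8454 ± 1013 CPM, which overlapped the thalamic-like cluster 19 at 7828 ± 387 CPM. Cluster 31, also led by Ebf2 and with 14 to 25 nuclei per library, held 7762 to 10852 CPM. The Sim1 PVN-like neurons, with under 20 nuclei in 1 library, held 1534 and 1064 CPM in the ZT8 libraries and 1499 and 1311 CPM in the ZT20 libraries of Erbb4, 1272 to 2014 CPM of Nrg1 and 3914 to 4363 CPM of Nrg3.

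**Figure D2:**
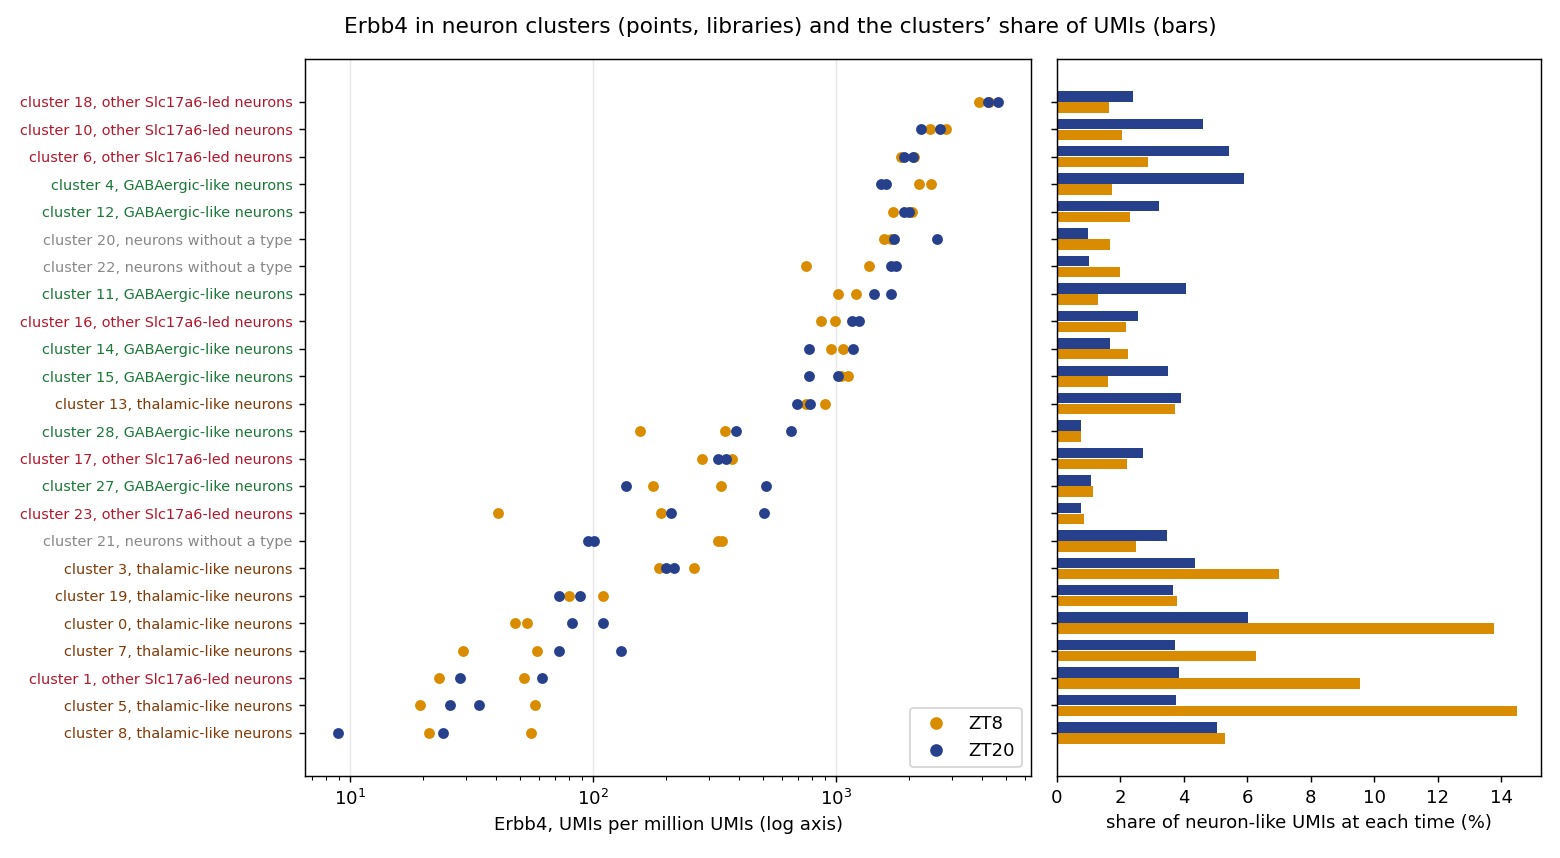
The left panel plots Erbb4 in CPM (log axis) for each neuron cluster with at least 20 nuclei in every library, 1 point per library; label colours mark the neuron types. The right panel plots the share of all neuron-like UMIs that each cluster took at ZT8 and ZT20, pooled over the 2 libraries of a time. Some clusters low in Erbb4, such as 0, 1 and 5, took more at ZT8, and some high in Erbb4, such as 4, 6 and 10, took more at ZT20. Not all did: clusters 20 and 22, also high in Erbb4, took more at ZT8.

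In neuron-like nuclei as a whole, Erbb4 stood at 571 and 575 CPM in the ZT8 libraries and 1065 and 1053 CPM in the ZT20 libraries. The groups were apart and the libraries of a time nearly equal, with a log2 change of 0.83 ± 0.018 (SE) in the edgeR fit of all genes. This is the difference by which the family was chosen, and it is given as a description. Nrg1 was also higher at ZT20, with 1315 and 1279 CPM in the ZT8 libraries and 1476 and 1490.2 CPM in the ZT20 libraries and a log2 change of 0.14 ± 0.018. Nrg3 was lower, with 5105 and 5070.4 CPM in the ZT8 libraries and 4540.2 and 4590.1 CPM in the ZT20 libraries (-0.21 ± 0.015). Egfr, from few UMIs, read 2.16 and 2.61 CPM in the ZT8 libraries and 4.10 and 4.64 CPM in the ZT20 libraries (0.81 ± 0.14). Nrg2 read 0.035 ± 0.026 and Erbb3 -0.40 ± 0.26 on the log2 scale. In the same fit 43.4% of all genes tested passed an adjusted p of 0.05; since the family was picked on this contrast, no count of members is read against that share.

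The number of nuclei per neuron cluster also differed between times, and most of the Erbb4 difference moved with it. Pooled over the libraries of a time, the Erbb4 level of neuron-like nuclei was 486 CPM higher at ZT20. An arithmetic split over the 36 neuron clusters gave 536 CPM from the shares of UMIs that clusters took and -50.0 CPM from the levels within clusters. The most negative level terms were -34.4 CPM from cluster 2, -28.6 from cluster 4, -14.1 from cluster 26 and -13.5 from cluster 25. The most positive was 11.8 CPM, from cluster 11. Clusters 2, 26 and 25 had only 16 and 16, 2 and 3, and 2 and 1 nuclei in the ZT8 libraries. The sign of the level part thus rests partly on few ZT8 nuclei. Cluster 34 had no ZT8 nuclei, so its level term was set to 0, and cluster 2 alone gave 111 CPM of the share part. Libraries were not aligned before clustering, so a level change that moved nuclei to another cluster would count as a share. The split and the equal draw below cannot tell these apart. A single random draw took the same number of nuclei of each cluster from every library (1570 nuclei per library, 35 clusters). It left Erbb4 at 744 and 774 CPM at ZT8 and 789 and 791 CPM at ZT20. The libraries of the times were still apart in this draw, and the log2 change was 0.065 ± 0.022 (SE). That SE does not cover the spread between draws, which was not measured. Clusters 2, 4 and 9 added the most through their shares: cluster 4 went from 1.75 to 5.90% of neuron-like UMIs and cluster 9, the Sim1 PVN-like one, from 0.813 to 5.73%.

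For the ligands the split was alike. The Nrg1 difference of 187 CPM divided into 180.0 from shares and 6.72 from levels, and the Nrg3 difference of -522 CPM into -479 and -42.2. With equal nuclei per cluster, Nrg1 read 1347 and 1363 CPM at ZT8 and 1349 and 1377 CPM at ZT20, which overlapped. Nrg3 stayed apart, at 4880.4 and 4889.7 CPM at ZT8 and 4706 and 4794 CPM at ZT20, with a log2 change of -0.033 ± 0.019 (SE). Egfr turned from higher to lower, with a log2 change of -0.10 ± 0.18.

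**Figure D3:**
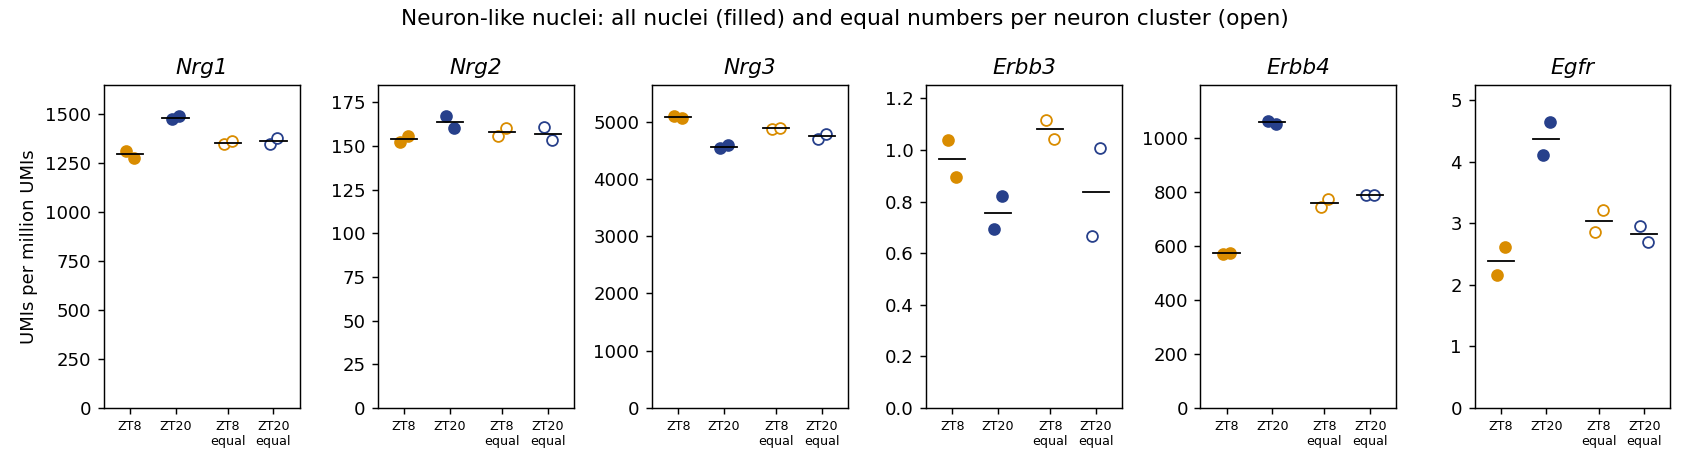
Levels in CPM of 6 genes in neuron-like nuclei, 1 point per library with the mean of each time as a bar; filled points use all nuclei and open points the same number of nuclei per neuron cluster from each library. The Erbb4 gap between times, from 573 to 1059 CPM on average with all nuclei, shrinks to 759 against 790.2 CPM with equal nuclei.

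**Figure D4:**
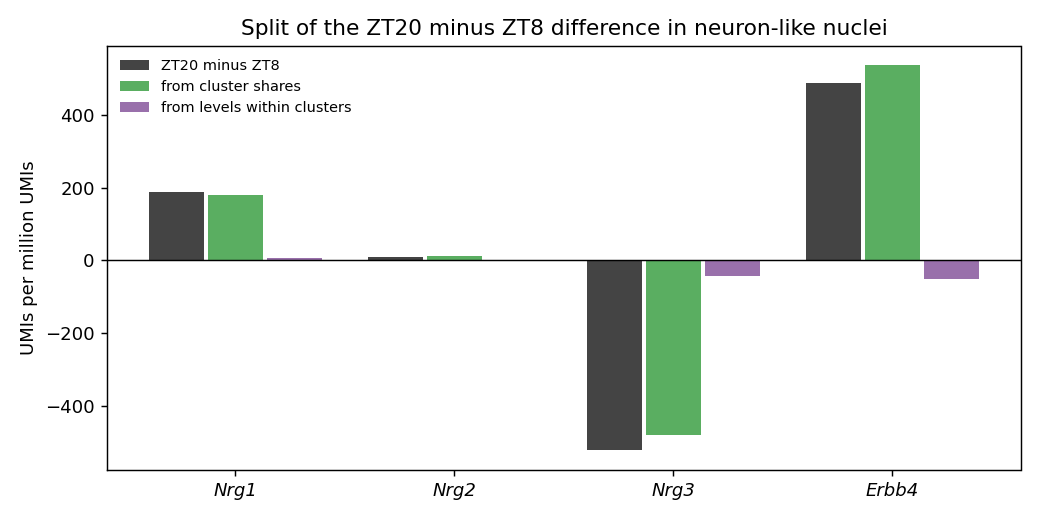
Bars give, in CPM, the ZT20 minus ZT8 difference of 4 genes in neuron-like nuclei (grey) and its parts from cluster shares (green) and from levels within clusters (purple), each pooled over the 2 libraries of a time. For Nrg1, Nrg3 and Erbb4 the green bar is close to the grey one, with 536 CPM beside 486 CPM for Erbb4.

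By neuron type, the direction of Erbb4 was the same and that of Nrg1 was not. GABAergic-like neurons held 1354 and 1259.9 CPM in the ZT8 libraries and 1611 and 1557 CPM in the ZT20 libraries, a log2 change of 0.28 ± 0.045 (SE). Other Slc17a6-led neurons held 981 and 1066 CPM in the ZT8 libraries and 1561 and 1532 CPM in the ZT20 libraries (0.56 ± 0.036). In thalamic-like neurons the values were 135 and 112 CPM in the ZT8 libraries and 183 and 161 CPM in the ZT20 libraries (0.49 ± 0.16), also apart. Single clusters were fitted where every library had at least 50 nuclei. Among thalamic-like clusters, Erbb4 changed by 0.94 ± 0.11 in cluster 0, 1.34 ± 0.57 in cluster 7 and -0.088 ± 0.16 in cluster 3. Clusters 5, 8 and 13 read -0.33 ± 1.06, -1.12 ± 0.85 and -0.15 ± 0.080. Cluster 19, not fitted, read 95.2 CPM at ZT8 and 79.7 CPM at ZT20 when pooled. Of neuron-like UMIs, the thalamic-like clusters 0 and 5, low in Erbb4, took 13.8 and 14.5% at ZT8 and 6.01 and 3.75% at ZT20. Cluster 13, the thalamic-like cluster highest in Erbb4, took 3.72% at ZT8 and 3.91% at ZT20. Nrg1 was higher at ZT20 in GABAergic-like neurons, with 1827 and 1566 CPM in the ZT8 libraries and 2164 and 2035 CPM in the ZT20 libraries (0.31 ± 0.059), and lower in other Slc17a6-led neurons, with 2224 and 2199.6 CPM in the ZT8 libraries and 1744 and 1822 CPM in the ZT20 libraries (-0.35 ± 0.032). The share of cluster 1, an Slc17a6-led cluster high in Nrg1, went from 9.56 to 3.86% of neuron-like UMIs, while its own Nrg1 level read 2969 and 3110.5 CPM in the ZT8 libraries and 3092 and 3076 CPM in the ZT20 libraries. Cluster 1 was low in Erbb4, at 37.0 CPM at ZT8 and 44.7 CPM at ZT20 when pooled. Within the fitted Slc17a6-led clusters 1, 6, 10 and 16 the log2 changes of Nrg1 were 0.045, 0.029, 0.068 and -0.082. Those of Erbb4 there were 0.29 ± 0.77, 0.012 ± 0.067, -0.10 ± 0.097 and 0.37 ± 0.11 (SE). The other Slc17a6-led clusters had too few nuclei for a fit. In the fitted GABAergic-like clusters 4, 12, 14 and 15 Erbb4 read -0.58, 0.075, -0.0049 and -0.29. Of the GABAergic-like clusters not fitted, 11, 24, 27 and 28 were higher at ZT20 when pooled, and 29 was lower. Cluster 11 read 1117 CPM at ZT8 and 1555 CPM at ZT20, while cluster 24 had only 6 and 5 nuclei at ZT20. The values by type thus hold differences in cluster shares beside changes within clusters, and the part of each was not tested. Nrg3 was lower in GABAergic-like and other Slc17a6-led neurons, with log2 changes of -0.20 ± 0.042 and -0.13 ± 0.030. The share of all genes past an adjusted p of 0.05 in edgeR was 16.6% in GABAergic-like, 22.2% in other Slc17a6-led and 18.9% in thalamic-like neurons, and the members are given without a test here.

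Single clusters went both ways for Erbb4. Its pooled level was higher at ZT20 in 14 of the 24 clusters and lower in the other 10. In the GABAergic-like cluster 4, which took a larger share at ZT20, Erbb4 was lower at ZT20, with 2464 and 2207 CPM in the ZT8 libraries and 1529 and 1614 CPM in the ZT20 libraries and a log2 change of -0.58 ± 0.083 (SE). In the thalamic-like cluster 0 it was higher but low throughout, with 53.5 and 48.0 CPM in the ZT8 libraries and 110.3 and 81.7 CPM in the ZT20 libraries (0.94 ± 0.11), and Nrg1 was lower there, with 1236 and 1274 CPM in the ZT8 libraries and 1001 and 863 CPM in the ZT20 libraries (-0.42 ± 0.048). The libraries of the times overlapped in cluster 18, which had the most Erbb4 of the 24 and too few nuclei for a fit.

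In glia, where the change with time could be tested, Egfr rose in astrocyte-like nuclei. Nrg3 passed the test with a lower level at ZT20 in oligodendrocyte-like nuclei, where UMIs of neuron markers were found too. The receptors Erbb4 and Erbb3 did not pass the test in any class. Egfr rose from 310.2 and 273 CPM at ZT8 to 359 and 364 CPM at ZT20, with both ZT20 libraries above both ZT8 libraries. The log2 change was 0.36 ± 0.074 (SE, adjusted p = 0.000533, edgeR quasi-likelihood test with Benjamini-Hochberg adjustment over all genes tested). DESeq2 gave 0.36 with an adjusted p of 0.0558, which misses 0.05. Without ZT8 replicate 2 the change was 0.28 (edgeR adjusted p = 0.0472). Over 10 alternatives the adjusted p ran from 8.36e-05 to 0.0558. Egfr was the only one called of 5 members tested in these nuclei, where 6.54% of all genes were called. The summed neuron markers in the same nuclei were 1765 and 1809 CPM at ZT8 and 1629.6 and 1479 CPM at ZT20, lower at ZT20 while Egfr was higher. The 7 oligodendrocyte markers there summed to 989 and 979 CPM at ZT8 and 619 and 655 CPM at ZT20, and the 9 astrocyte markers to 13759 and 14129 CPM at ZT8 and 14228 and 14655 CPM at ZT20. Of the 9 astrocyte markers, 2 were higher and 4 lower at ZT20 without overlap between libraries. None of the neuron markers was at 0, and the part of these markers in the result was not tested.

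Nrg3 in oligodendrocyte-like nuclei went from 174 and 220.1 CPM at ZT8 to 170.0 and 153 CPM at ZT20, so the groups did not overlap but the highest ZT20 and the lowest ZT8 library were close. Its log2 change was -0.26 ± 0.081 (SE, edgeR adjusted p = 0.0163), and it was the only one of 5 members called there, beside 10.6% of all genes. The call was lost without either second library: without ZT8 replicate 2 the log2 change was -0.075 (edgeR adjusted p = 0.781), and without ZT20 replicate 2 it was -0.19 (adjusted p = 0.292). With DESeq2 the adjusted p was 0.365, and over 10 alternatives it ran from 0.0004 to 0.781. The neuron markers summed to 2044 and 2072 CPM at ZT8 and 1829.7 and 1723 CPM at ZT20 in the same nuclei, with 5 of the 7 lower and 2 higher at ZT20. Per 1000 UMIs of those markers, Nrg3 had 84.9 and 106 UMIs in the ZT8 libraries, then 92.9 and 88.9 in the ZT20 libraries, which overlapped.

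The other members did not pass the test in glia or endothelial-like nuclei. The log2 change of Erbb4 was 0.099 ± 0.046 in astrocyte-like, 0.0067 ± 0.035 in oligodendrocyte-like and -0.027 ± 0.072 in OPC-like nuclei (± SE), with edgeR adjusted p of 0.227, 0.948 and 0.95. Erbb3 read 0.19 ± 0.099 in oligodendrocyte-like and 0.48 ± 0.29 in OPC-like nuclei (edgeR adjusted p = 0.234 and 0.559), with both ZT20 libraries above both ZT8 libraries in each class. Nrg2 in astrocyte-like nuclei went from 87.9 and 103 CPM to 72.2 and 73.6 CPM (-0.34 ± 0.13, edgeR adjusted p = 0.122). In OPC-like nuclei 0 of 5 members tested were called, and in microglia- and endothelial-like nuclei 0 of 3 each, by edgeR and by DESeq2, with none at an unadjusted p under 0.05; of all genes edgeR called 1.58%, 0.752% and 0.418%. In endothelial-like nuclei Erbb4 read 483 and 601 CPM in the ZT8 libraries and 193 and 466 CPM in the ZT20 libraries (-0.68 ± 0.39), from 282 nuclei in all.

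Whether glial classes differed in their change was tested with a class by time term. None of 6, 6 and 5 members tested passed in edgeR between astrocyte- and oligodendrocyte-like, astrocyte- and OPC-like, and OPC- and oligodendrocyte-like nuclei, beside 1.56, 0.325 and 0.400% of all genes; 2, 2 and 1 members had an unadjusted p under 0.05, and no other tool was run on this term. The change of Nrg3 was higher in astrocyte- than in oligodendrocyte-like nuclei by 0.36 ± 0.13 on the log2 scale (edgeR adjusted p = 0.164). For Egfr, with 15 UMIs in oligodendrocyte-like and 6 in OPC-like nuclei, the terms were 0.18 ± 0.80 and 2.64 ± 1.23 (edgeR adjusted p = 0.979 and 0.608), so the rise in astrocyte-like nuclei was not shown to differ from the change in those classes.

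**Figure D5:**
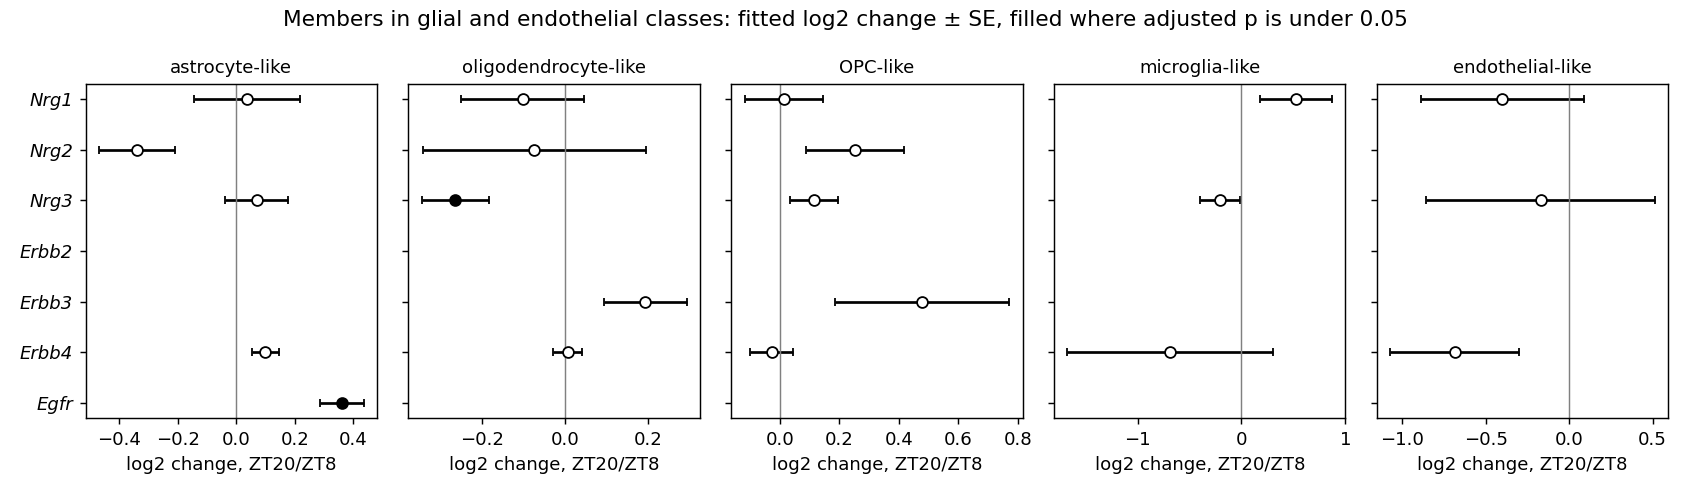
Each panel plots, for 1 glial or endothelial class, the fitted log2 change from ZT8 to ZT20 of each gene tested, with its SE as a bar; the horizontal scale differs between panels, filled points have an edgeR adjusted p under 0.05 and genes with too few UMIs have no point. Egfr in astrocyte-like nuclei (0.36) and Nrg3 in oligodendrocyte-like nuclei (-0.26) are the 2 filled points.

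A list of 72 other genes of the pathway was read from the same fits: other ligands of the EGF family, proteases that release neuregulins, adaptors, downstream kinases and signal proteins, and negative regulators. In oligodendrocyte-like nuclei 6 of 61 tested rose and 1 fell, beside 5.63% of all genes higher and 4.95% lower. Gab1, an adaptor that links receptors to PI3-kinase, rose from 625 and 673 to 803 and 792 CPM (0.32 ± 0.046 on the log2 scale, edgeR adjusted p = 3.86e-10). Adam10, a protease that sheds membrane proteins, rose by 0.31 ± 0.079 (adjusted p = 0.00217). Spred1, an inhibitor of Ras signalling, rose by 0.29 ± 0.086 (adjusted p = 0.0125), and Erbin, a scaffold that binds ErbB2, rose by 0.12 ± 0.040 (adjusted p = 0.0254). Fyn, a Src-family kinase of myelinating cells named here after its values were seen, fell by 0.30 on the log2 scale, with 126 and 107 CPM at ZT8 against 84.2 and 102 CPM at ZT20 (edgeR adjusted p = 0.0411). The median over the 61 was 0.016 on the log2 scale against 0.00067 over all genes, and DESeq2 called 1 of them.

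In astrocyte-like nuclei 3 of 62 rose and 0 fell, beside 3.97% and 2.57% of all genes. They were Shc3, an adaptor of receptor tyrosine kinases, with 145 and 153 CPM at ZT8 against 182 and 211 CPM at ZT20 (0.44 ± 0.096, edgeR adjusted p = 0.000962), Cspg5, a proteoglycan with an EGF-like domain that can act on ErbB3 (0.32 ± 0.083, adjusted p = 0.00771), and Lrig1, which lowers ErbB receptor levels (0.20 ± 0.059, adjusted p = 0.0207). DESeq2 called none of the 3. The median log2 change over the 62 was 0.033 against 0.0021 over all genes. In OPC-like nuclei 0 of 61 rose and 1 fell, beside 1.07% of all genes higher and 0.506% lower: Tmeff2, a membrane protein with an EGF-like domain, fell by 0.51 on the log2 scale, with 943 and 863 CPM at ZT8 against 563 and 681 CPM at ZT20 (edgeR adjusted p = 0.000145). The median there was -0.12 against 0.0028, and DESeq2 called none of the list.

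In neuron-like nuclei 21 of 69 list genes were higher and 20 lower, beside 21.8% and 21.6% of all genes, with medians of -0.016 and 0.0081 on the log2 scale, and nothing is read from these counts. The 6 with the smallest p were Shc3, Tmeff2 and Src, which were lower at ZT20, and Stat5b, Araf and Spred2, which were higher. Shc3 had 204 and 200.2 CPM at ZT8 against 164 and 159 CPM at ZT20 (-0.38 ± 0.024 on the log2 scale), while it rose in astrocyte-like nuclei. Stat5b, a transcription factor activated by receptor signalling, had 69.3 and 68.6 CPM at ZT8 against 91.6 and 90.1 CPM at ZT20 (0.34 ± 0.030). These values hold the same differences in cluster shares as those of the members.

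The genes whose levels were most like those of the receptors over 9 named classes were taken from 11568 genes by Pearson's r of log2(CPM + 10). For Erbb3 these were Ninj2, Rtkn, Ugt8a and Gal3st1 (r from 0.987 down to 0.959), of which Ugt8a and Gal3st1 encode enzymes of myelin lipid synthesis. For Egfr they were Hsd11b1, Gjb6, Adra2a and Ahcyl1 (r from 0.994 down to 0.960), with Gjb6 the gap junction protein connexin 30 of astrocytes. Erbb4 went most closely with Ccdc88a, Tafa5, Lrrc4b and Pcsk6 (r from 0.953 down to 0.943). Among the ligands, Nrg3 was most like Cacna1e, Cdh18, Rbfox1 and Frmd3 (r from 0.994 down to 0.988) and Nrg1 most like Emb, Ryr2, Cdr1os and Tmem145 (r from 0.970 down to 0.957). The 9 classes share libraries, and 1 of them, tanycyte-like nuclei, comes from the ZT20 libraries alone, so these correlations describe the classes and carry no test.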

How the data were processed

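The values are UMI counts per gene and nucleus from 4 droplet libraries, deposited without normalization. They were counted by the authors with Cell Ranger 7.0.0, per the file headers; STAR 2.6 and the build mm10 are named in the submitters' processing notes, and the counting of introns was not given in the sources used here. The deposited lists of barcodes and genes hold no measurement. All 4 matrices were used, and samples were grouped by the time in their labels.

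The filters on nuclei were a minimum of 500 genes and a maximum of 5% for UMIs of mitochondrial genes, and Scrublet scores were used to leave out the expected share of doublets (0.8% per 1000 nuclei). Clusters (scanpy 1.11.5, 3000 variable genes without the 7 members, 40 components, Leiden resolution 1.0; the libraries were not aligned) were named from marker lists. The score thresholds for naming were set after the clusters were seen. Members, marker lists and the pathway list were chosen with earlier results of these data known. UMIs were summed per library and class and tested with edgeR 4.0.16 (filterByExpr, TMM, robust quasi-likelihood fit, R 4.3.3), with Benjamini-Hochberg adjustment over all genes and a threshold of 0.05. DESeq2 1.42.0 was an alternative, beside other size factors, no filter, each library left out, a replicate block, stricter nuclei, fewer doublets and equal nuclei per neuron cluster. The edgeR step was run on simulated counts with the same dispersion for every gene and changes only in genes with many UMIs. That run does not cover genes with few UMIs or the real spread between libraries. A permutation of 2 against 2 libraries cannot go below p = 0.333, so none was used. The p-values measure the spread between these libraries.

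Genes named were the 7 members, up to 6 pathway genes per class with the smallest p among those called, and the 4 genes most like each of Erbb3, Erbb4, Egfr, Nrg1 and Nrg3 (reaching 20 CPM in a class, unnamed gene models passed over). Some pathway genes that this rule names are not reported here. Depth limits rare genes: intervals and floors, taken at 3 counts, cover counting error only. Same-numbered libraries deviated from their group means with correlations of -0.022 to 0.072, and no label gives a shared day, so the numbers were not read as pairs.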

Additional observations from a re-analysis of the deposited data

Results flagged for a closer look

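In 3 cases every library of one neuron type moved one way with time and every library of another moved the opposite way; the difference between the types was not tested in any of them. Nrg1 was higher at ZT20 in GABAergic-like neurons (0.31 on the log2 scale) and lower in other Slc17a6-led neurons (-0.35), a gap of 0.66. Within the Slc17a6-led clusters with enough nuclei for a fit, 1, 6, 10 and 16, the change was 0.045, 0.029, 0.068 and -0.082. Cluster 1, high in Nrg1, went from 9.56 to 3.86% of neuron-like UMIs. It scored 0.459 as thalamic-like, under the threshold of 0.5 for a regional name. The part of cluster shares in this gap was not tested. Nrg2 was lower at ZT20 in thalamic-like neurons (-0.090) and higher in GABAergic-like neurons (0.12), with a difference of -0.21, and higher in other Slc17a6-led neurons (0.11), with a difference of -0.20.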

How the results depend on the processing

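The change of Egfr in astrocyte-like nuclei kept its direction under all 10 alternatives and its call under all but DESeq2, with the replicate block at 0.36 (edgeR adjusted p = 0.00224). The lower Nrg3 level in oligodendrocyte-like nuclei at ZT20 kept its direction and lost its call with DESeq2, without ZT8 replicate 2 or ZT20 replicate 2, and with the highest 20% of doublet scores left out (-0.20). DESeq2 called fewer genes throughout: 162 against 790 in astrocyte-like, 350 against 1283 in oligodendrocyte-like, 4 against 156 in OPC-like and 5057 against 8499 in neuron-like nuclei. With it the members called went from 1 to 0 in both astrocyte- and oligodendrocyte-like nuclei, and the pathway genes called from 41 to 26 in neuron-like, 3 to 0 in astrocyte-like, 7 to 1 in oligodendrocyte-like and 1 to 0 in OPC-like nuclei. Without a filter on low counts the oligodendrocyte-like pathway count was 4. Leaving out high doublet scores gave 0 members in oligodendrocyte-like nuclei and 1, Nrg3, in endothelial-like nuclei. With equal nuclei per neuron cluster 1 member in place of 4 passed in neuron-like nuclei, while over all genes 3744 of 18232 passed in place of 8499 of 19575, and Egfr there turned to -0.10. These member counts include Erbb4, on which the family was picked, and nothing is read from them. The cause of these differences was not tested.

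The replicate block gave 2 OPC-like pathway genes in place of 1 and moved no other count of members or pathway genes called by over 1.5 times. Over all genes it gave 91 calls in place of 53 in microglia-like and 96 in place of 27 in endothelial-like nuclei. Leaving out 1 library at a time, with the lone library assumed to vary like the pair, gave 0 to 1 members in each of oligodendrocyte-, microglia- and endothelial-like nuclei, and 30 to 40 pathway genes in neuron-like, 0 to 2 in astrocyte-like, 3 to 8 in oligodendrocyte-like and 0 to 3 in OPC-like nuclei. The call in microglia-like nuclei was Erbb4 without ZT8 replicate 1 (-1.29, edgeR adjusted p = 6.82e-05), and that in endothelial-like nuclei Erbb4 without ZT20 replicate 2 (-1.48, adjusted p = 0.000779).

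Uncalled members turned in direction as follows, on the log2 scale, with the range over the left-out libraries. In astrocyte-like nuclei Nrg1 ran from -0.090 to 0.17 and Nrg3 from -0.15 to 0.33, with -0.13 without high doublet scores. In oligodendrocyte-like nuclei Nrg1 ran from -0.23 to 0.00075, Nrg2 from -0.23 to 0.090 and Erbb4 from -0.082 to 0.085, with Erbb4 at -0.0013 without a filter and -0.013 without high doublet scores. In OPC-like nuclei Erbb4 ran from -0.060 to 0.0028 and Nrg1 from -0.31 to 0.27, with Nrg1 at -0.00044 in the block and -0.028 without high doublet scores. Erbb4 in microglia-like nuclei ran from -1.43 to 0.55. In endothelial-like nuclei Nrg1 ran from -0.93 to 0.52 and Nrg3 from -0.76 to 0.87; with stricter nuclei they read 0.45 and 0.53, without high doublet scores 0.46 and 1.05 (Erbb4 0.010), and in the block Nrg3 read 0.0055. Of 126 alternative CPM values, 120 stayed within 1 SD of the value given, and Nrg3 in endothelial-like nuclei went from 678 to 1073 CPM with stricter nuclei.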
